A study of Mus musculus with 34 samples.

Results

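The 10 genes described here carry out or control the presentation of peptides on MHC class I and class II molecules: B2m, H2-K1, H2-D1, Tap1, Psmb9, Psmb8, Nlrc5, Ciita, H2-Ab1 and Cd74. They were chosen by name, and each was found once among the 21938 protein-coding genes of the GENCODE M21 annotation (mouse genome GRCm38/mm10). For each gene the mean H3K4me3 signal was taken within 1000 bp on either side of the gene 5′ end. H3K4me3, the trimethylation of lysine 4 on histone H3, marks the starts of genes that are active or ready for use, and its level is not a measure of transcription.

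The libraries came from cells scraped from the villi of normal-appearing small intestine. H3K4me3 was profiled by CUT&RUN, in which an antibody tethers a nuclease to chromatin without crosslinking and the released fragments are sequenced. There were 2 libraries from wild-type C57BL/6J mice and 2 from ApcMin/+ mice, which carry a truncating mutation in 1 copy of the tumour suppressor Apc in every cell of the body. The study's methods give each genotype 2 mice of matched age, put at 5 weeks in the labels, at 5 to 6 weeks in the design text and at 6 weeks in the methods. The labels name no other allele or agent.

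Class I molecules stand on nearly every nucleated cell. A heavy chain, here H2-K1 or H2-D1, pairs with β2-microglobulin (B2m) and holds a short peptide cut from a protein of the cell's own interior. The immunoproteasome subunits Psmb8 and Psmb9 take the place of standard catalytic subunits and change which peptides are cut, and Tap1 forms, with Tap2, the pump that moves peptides into the endoplasmic reticulum. Class II molecules, to which H2-Ab1 gives the β chain of I-A, present peptides from outside the cell. Their invariant chain, Cd74, fills the groove until the molecule reaches the endosome. Nlrc5 and Ciita are the related transactivators of the class I and class II genes. Intestinal epithelium carries class I molecules and, mainly under interferon-γ, class II molecules as well.

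Sequence helps to place what was measured at the class I genes. RefSeq promoters (GRCm38.p6, 250 bases before to 50 after each start) matched 6 of the 10 genes: B2m, H2-K1, H2-D1, Tap1, Psmb9 and Psmb8. The B2m stretch, chr2:122147437-122147685 on the plus strand, is shown because it holds both an interferon-type element and a CCAAT box just before the start, and it lies within the transcribed span of Patl2 on the other strand. The H2-K1 stretch, chr17:34000348-34000597 on the minus strand, and the 30 bases of H2-D1 at chr17:35262912-35262941 on the plus strand, inside an annotated H2-D1 exon, are shown because these heavy chain genes, which lie apart on the same chromosome, share sequence. Capitals mark the motifs named after the sequences.

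B2m: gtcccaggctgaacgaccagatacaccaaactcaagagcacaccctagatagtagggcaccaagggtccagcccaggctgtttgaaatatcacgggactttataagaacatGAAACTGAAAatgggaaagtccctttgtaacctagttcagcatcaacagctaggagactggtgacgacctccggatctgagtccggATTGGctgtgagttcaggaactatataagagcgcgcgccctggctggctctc
H2-K1: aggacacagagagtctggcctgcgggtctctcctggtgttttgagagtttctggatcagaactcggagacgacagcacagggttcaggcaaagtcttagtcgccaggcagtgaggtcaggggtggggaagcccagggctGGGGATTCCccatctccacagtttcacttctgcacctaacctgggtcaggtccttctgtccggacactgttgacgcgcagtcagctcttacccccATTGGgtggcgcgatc
H2-D1: agcccagggctGGGGATTCCccatctcctc

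Motifs were searched on both strands. The letters GAAANNGAAA, a pair of half-sites of the kind bound by interferon regulatory factors, occurred in B2m at positions -139 to -130 from the RefSeq start and in none of the other 6 promoters read (H2-K1 has 2 starts). Of all 32851 promoters in the table, 3.44% held them. The κB form GGGNNTTCC occurred in H2-K1 and H2-D1 and in 5.82% of all promoters, and the 30 bases around it were identical at 29 positions between the heavy chain genes. CCAAT, the core bound by NF-Y, occurred in B2m, H2-K1, H2-D1, Tap1 and Psmb9 and in 37.4% of all promoters. Tap1 and Psmb9 share that match, which stands between their RefSeq starts but not between the gene 5′ ends used for the signal. The GAS form TTCNNNGAA was found in Psmb8 alone among these genes and in 8.30% of all promoters, and the X-box core AGCAAC in none of them and in 14.8% of all. These are matches of letters and not mapped sites.

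The 4 libraries differed in depth and in overall promoter signal. They held 1430000 and 4790000 tags in wild-type and 3700000 and 5470000 in ApcMin/+, a tag being 1 sequenced fragment. The median of the 9930 promoters whose mean signal reached 2, in coverage scaled to 10000000 tags, was 4.53 and 3.06 in wild-type and 13.2 and 4.18 in ApcMin/+. ApcMin/+ replicate 1 was therefore far above the other 3, and it was the highest library at 98.6% of those promoters. All 14 markers of enterocytes and epithelium passed that minimum, against 0 of 15 leukocyte markers and 0 of 9 markers of stroma and vessels. Each group below was compared with the signal as deposited, then after each library had been centred on its own median promoter, and also without ApcMin/+ replicate 1.

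In wild-type villus cells the genes fell into a higher set and a lower set that did not overlap. Tap1 had 6.88 ± 1.52 and Psmb9 6.45 ± 1.38 (mean signal ± SD, n = 2), followed by H2-D1 with 4.34 ± 1.73, H2-K1 with 4.17 ± 0.921, Psmb8 with 3.30 ± 0.269 and B2m with 3.22 ± 1.92. Neighbours in this order overlapped in their 2 values or lay within 1 SD of each other, so the order of neighbours was not resolved. Farther apart, both Tap1 values exceeded both values of H2-D1, H2-K1, Psmb8 and B2m, and Tap1 was first and Psmb9 second in all 4 libraries. H2-Ab1 at 0.969 ± 0.0498, Nlrc5 at 0.940 ± 0.149, Ciita at 0.766 ± 0.0975 and Cd74 at 0.672 ± 0.0349 made up the lower set. The class I machinery was thus above the class II genes at the gene 5′ ends, and both transactivators stood with class II. Local background, measured beyond 5000 bp from any start, was 0.318 and 0.337 in these libraries.

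**Figure D1:**
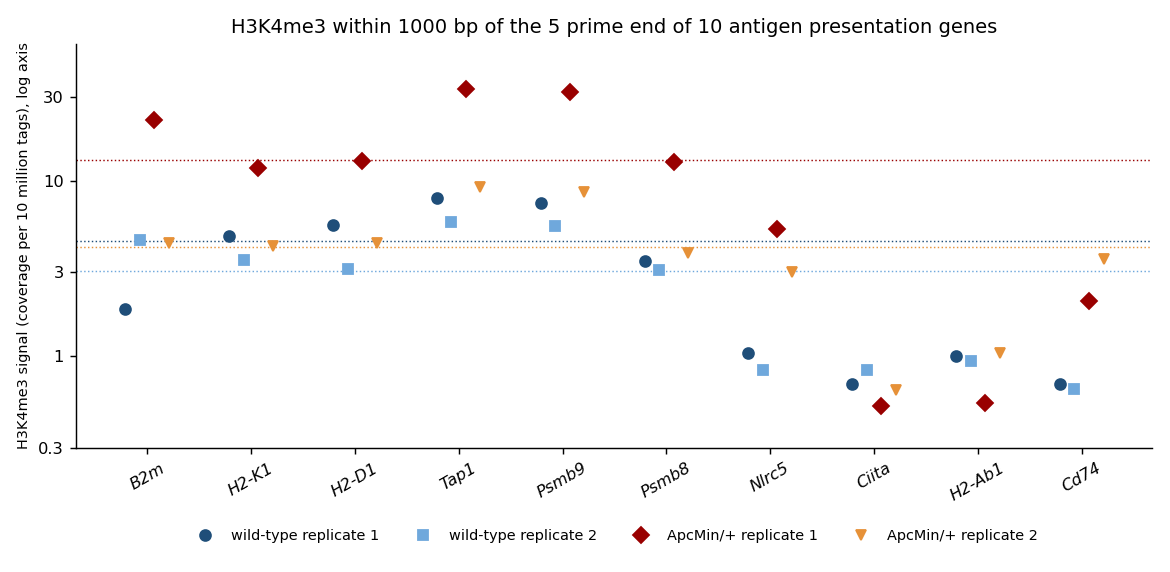
H3K4me3 signal (coverage per 10000000 tags, log axis) within 1000 bp of each gene 5′ end, with 1 point per library and a dotted line at each library's median tested promoter. ApcMin/+ replicate 1 is highest at 7 of the 10 genes, and its dotted line, at 13.2, stands above those of the other libraries.

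Across the genotypes, no gene passed the test. With limma and Benjamini-Hochberg adjustment at 0.05, 0 of the 7 genes tested and 0 of all 9930 promoters (0%) were called, while 132 promoters and 1 of the genes, Nlrc5, had an unadjusted p under 0.05. Nlrc5 passed the minimum only through its ApcMin/+ values. Ciita, H2-Ab1 and Cd74 were under the minimum, and in a fit of all 21938 promoters without a minimum 0 were called (0%), the 10 genes included, and 0 of the 10 had an unadjusted p under 0.05. With 2 libraries a group an exact permutation test cannot give a p below 0.33. On simulated data with the real library levels and 200 of 9930 promoters changed 4-fold, limma recovered 0% without centring and 82% with it. The centred run also made 14 false calls. The spread between simulated libraries was assumed and not estimated from these libraries, so the 82% does not measure the power reached here.

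Counted by their values, 8 of the 10 genes had a log2 difference above 0, against 70.6% of all promoters and 99.2% of the tested ones. Both ApcMin/+ values exceeded both wild-type values at 5 of the 10 genes (Tap1, Psmb9, Psmb8, Nlrc5 and Cd74), against 26% of all promoters and 38.5% of the tested ones. Both were below at 1 gene, Ciita, against 7.17% of all. The median log2 difference over the genes was 1.05, beside 0.85 over the tested promoters and 0.35 over all. After centring, the median was 0.19, beside -0.01 over the tested promoters, and the groups stayed apart upwards at 2 genes, Tap1 and Psmb9, which share most of their window, against 5.96% of all promoters and 13.1% of the tested ones. They stayed apart downwards at 1 gene, H2-K1, against 21.1% of all and 14.3% of the tested. The centred fit called 12 promoters (0.121%), none of them among these genes. Without ApcMin/+ replicate 1 the median over the genes was 0.28, beside 0.13 over the tested promoters.

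**Figure D2:**
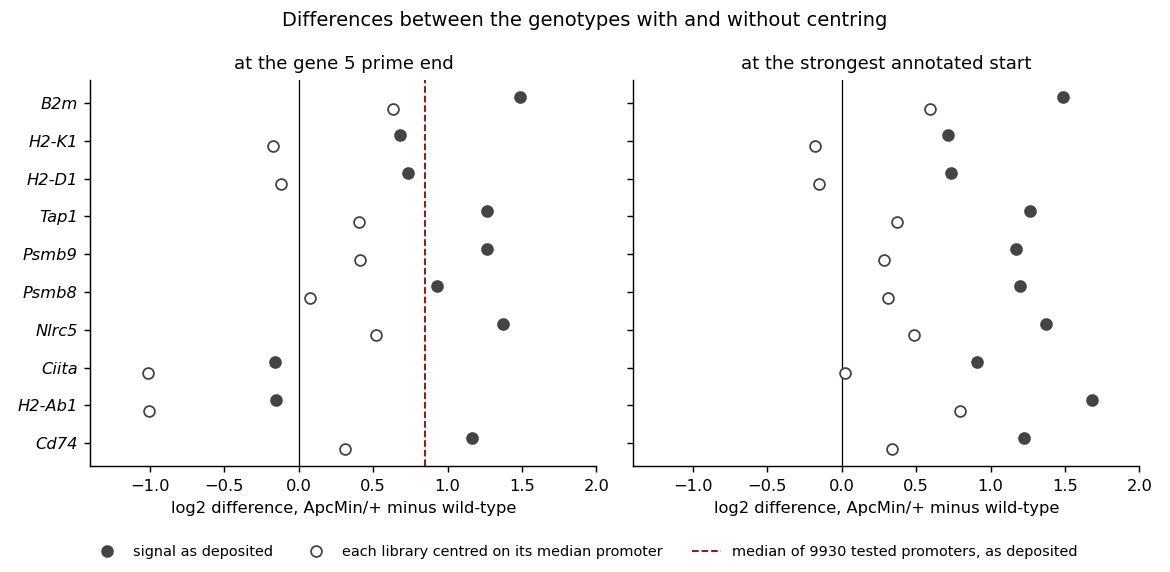
Difference in log2(signal + 1), ApcMin/+ minus wild-type, for each gene, measured at the gene 5′ end (left) and at the annotated start with most signal (right). Filled points use the signal as deposited, open points each library centred on its median promoter, and the dashed line marks the median of the tested promoters, 0.85. Centring moves H2-K1 and H2-D1 below 0, and the move to another start changes mainly H2-Ab1 and Ciita.

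The peptide pump and the immunoproteasome subunit beside it held the strongest promoter of the group. Tap1 (ENSMUSG00000037321, chr17:34187553-34197225, plus strand) had signals of 7.95 and 5.80 in wild-type and 33.2 and 9.24 in ApcMin/+. Psmb9 (chr17:34181987-34187764, minus strand) had 7.43 and 5.47 in wild-type and 32.1 and 8.57 in ApcMin/+. Both ApcMin/+ libraries stood above both wild-type libraries at each gene. The starts lie 211 bp apart and 89.5% of the windows is shared, so the 2 genes are 1 measurement and not separate evidence. Ranked within each library among all promoters, Tap1 was at percentiles 93.2 and 97.6 in wild-type and 99.1 and 99.4 in ApcMin/+. It rested on 23, 56, 246 and 101 fragments, the first with an exact 95% Poisson interval of 14.6 to 34.5 (intervals here cover counting error only). The log2 difference was 1.26 with an SE of 1.26 (limma, adjusted p = 0.683 with Benjamini-Hochberg), 0.41 after centring and 0.39 without ApcMin/+ replicate 1. Signal of at least 5 times the genome mean, averaged over the libraries, ran without a gap above 500 bp for 4100 bp here, against a median of 2000 bp and a 90th percentile of 3900 bp over the tested promoters.

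Psmb8, a catalytic subunit of the same proteasome, starts 10168 bp from Tap1 on the same strand. Its signals were 3.49 and 3.11 in wild-type and 12.7 and 3.88 in ApcMin/+, so the groups did not overlap, though ApcMin/+ replicate 2 exceeded the higher wild-type library by little. The log2 difference was 0.93 with an SE of 0.97 (limma, Benjamini-Hochberg adjusted p = 0.683), 0.08 after centring and 0.19 without ApcMin/+ replicate 1. Most of its signal lay inside the gene. Within 500 bp of the starts annotated 649 bp downstream, the signals were 6.57, 4.32, 23 and 6.53, against 2.92, 3.84, 17.2 and 4.10 at the 5′ end. Tap2, the partner of Tap1 and the next gene along, was low at its 5′ end, with 1.74 and 0.439 in wild-type and 0.717 and 1.51 in ApcMin/+. At its start 1040 bp downstream the values were 3.82, 2.54, 8.73 and 3.51.

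**Figure D3:**
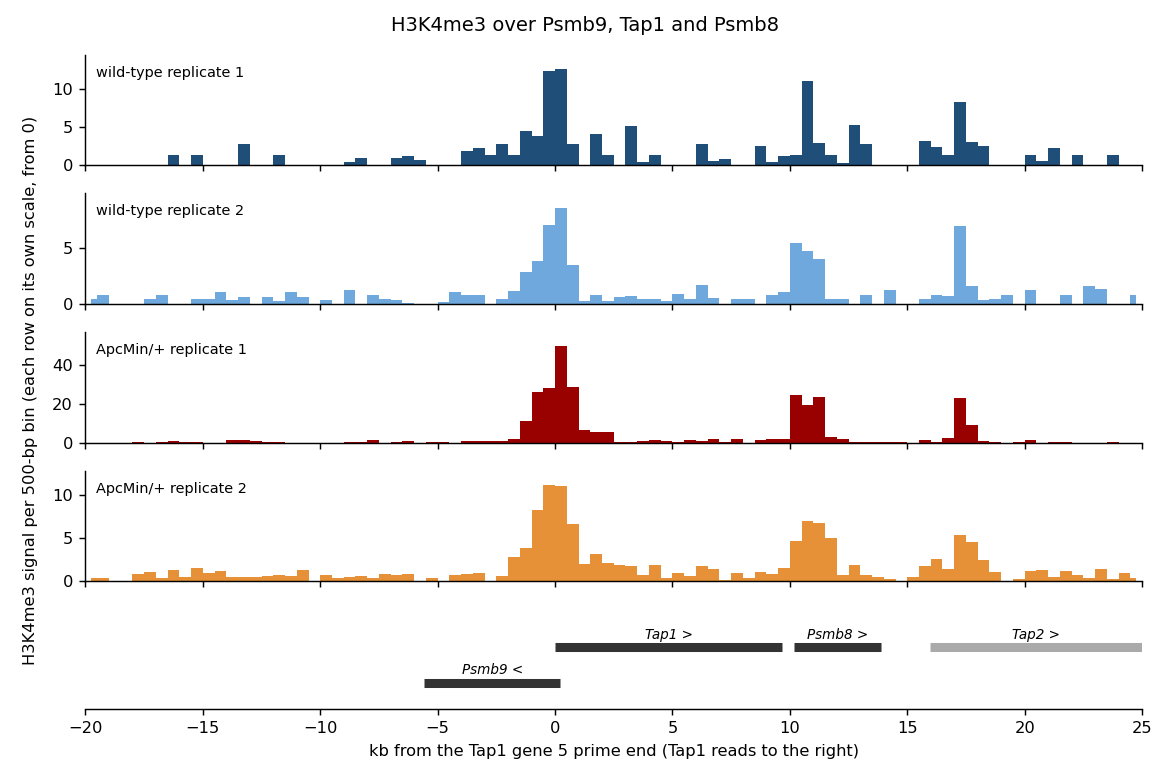
H3K4me3 signal in 500-bp bins over Psmb9, Tap1, Psmb8 and Tap2, in kb from the Tap1 gene 5′ end, with 1 row per library on its own scale from 0 and the gene spans below. Every library shows its tallest block at the shared Tap1 and Psmb9 start and further blocks near the starts of Psmb8 and Tap2.

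B2m (ENSMUSG00000060802, chr2:122147686-122153083, plus strand) is the light chain that every class I molecule needs. Its signals were 1.86 and 4.57 in wild-type and 22.1 and 4.4 in ApcMin/+. The groups overlapped, since ApcMin/+ replicate 2 was below wild-type replicate 2, and 1 library of each genotype stood apart from its partner. The low wild-type value rested on 5 fragments, with an interval of 1.62 to 11.7, against 44 in the other wild-type library and 164 and 48 in ApcMin/+. B2m was at percentile 57.2 in that library and at 92.1, 92.4 and 79.6 in the other 3. Its log2 difference of 1.48 (SE 1.05) had a limma adjusted p of 0.683 with Benjamini-Hochberg, and centring left 0.63. Without ApcMin/+ replicate 1 the difference was 0.44. In the centred comparison it was 1.34 when wild-type replicate 2 was left out and -0.07 when replicate 1 was. Its direction therefore rested on the wild-type library with 5 fragments in the window. In both wild-type libraries the highest 250-bp bin, at 10.5 and 10.1, began 1000 bp inside the gene, where the window ends. In ApcMin/+ replicates 1 and 2 the highest bins, at 56.5 and 7.59, began 750 and 0 bp inside it. The effect of the window edge on the low wild-type value was not tested.

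The classical heavy chains stayed close to the median promoter. H2-K1 (ENSMUSG00000061232, chr17:33996017-34000347, minus strand) had 4.83 and 3.52 in wild-type and 11.8 and 4.26 in ApcMin/+. H2-D1 (ENSMUSG00000073411, chr17:35262730-35267499, plus strand) had 5.56 and 3.12 in wild-type and 12.9 and 4.41 in ApcMin/+. At both genes ApcMin/+ replicate 2 lay between the wild-type libraries, so the groups overlapped. H2-K1 divided by H2-D1 was 0.867, 1.13, 0.920 and 0.965 in the 4 libraries. The log2 differences were 0.68 (SE 1.03) and 0.74 (SE 1.05), each with a limma adjusted p of 0.683 by Benjamini-Hochberg. They changed sign on centring, to -0.17 and -0.12, and were 0.03 and 0.06 without ApcMin/+ replicate 1. Within each library their percentiles stayed between 74.3 and 83.4, with both ApcMin/+ values below both wild-type values at H2-K1 and an overlap at H2-D1.

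Sequence copies limit what the heavy chain values can resolve. Of the 25-base words in the H2-K1 window, 39.5% occur more than once in the reference genome, and 20.1% in the H2-D1 window, against 0% at Tap1 and Psmb8 and at most 5.92% at the other 6 genes. In a global alignment of their 300-base promoters, 239 positions were paired, 91.2% of them identical. With gaps counted, 60.4% of the 361 positions of the alignment were identical. Reads were trimmed to about the length of these words and poorly placed reads were removed, so fragments from shared bases may be missing or assigned to the wrong copy. The 14 other heavy chains, of which 9 were tested, had a median log2 difference of 0.56 and of -0.29 after centring. The repeated share of words in their windows ran from 0.86% at H2-M2 to 76.2% at H2-Q6. It was 74% at H2-Q7, 67.5% at H2-T23 and 52.2% at H2-T22, where both ApcMin/+ libraries were above. The same limit therefore holds for counts over these heavy chains. Both ApcMin/+ libraries were above at 5 of them and below at 1, against 26% and 7.17% of all promoters. After centring they were above at 0 and below at 3. The shares were then 5.96% and 21.1% of all promoters, and 13.1% and 14.3% of the tested ones. Of these heavy chains, H2-T3 had the lowest difference among all tested genes of the pathway, 0.37. Its signals were 14.2 and 6.02 in wild-type and 24.5 and 6.00 in ApcMin/+.

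**Figure D4:**
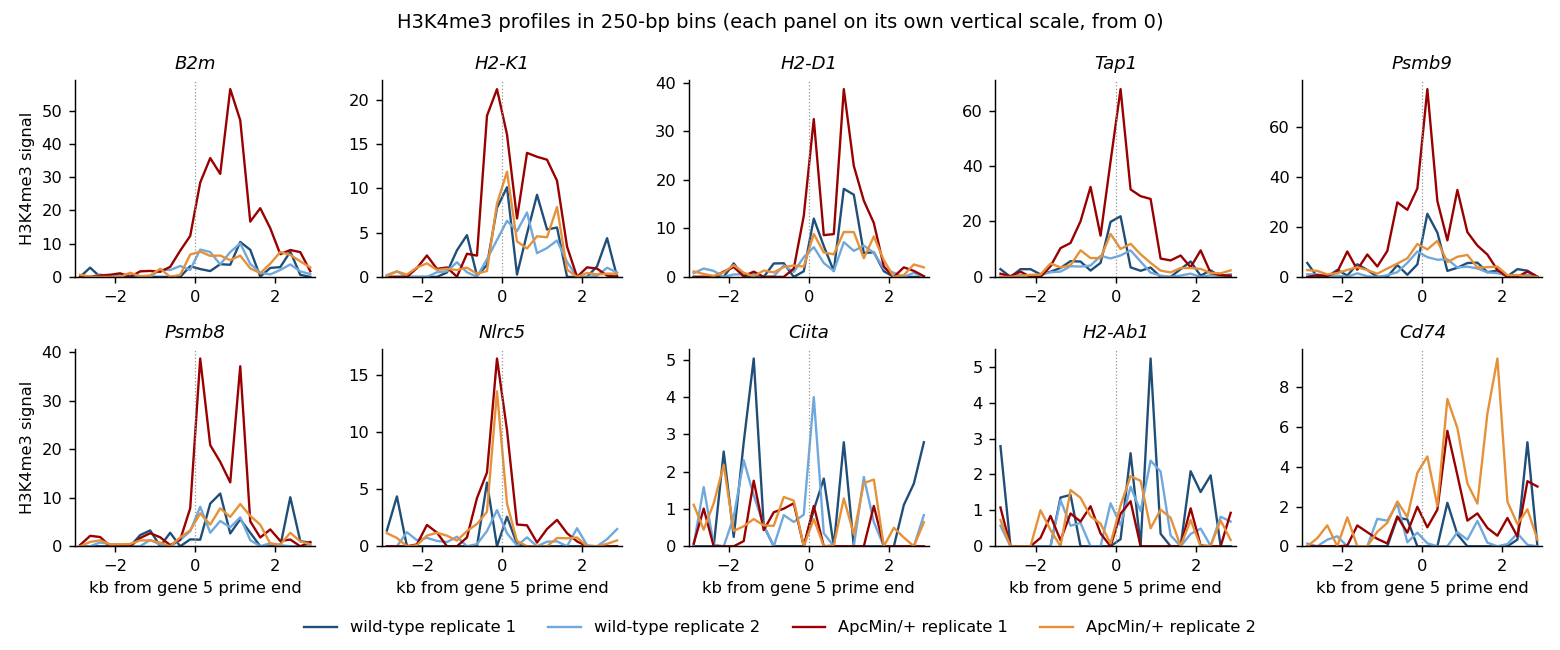
H3K4me3 signal in 250-bp bins from 3 kb before to 3 kb after each gene 5′ end, read along the gene, with 1 line per library and a vertical scale of its own in each panel. The class I genes show peaks in every library, Nlrc5 shows 1 narrow peak before its start, and Ciita and H2-Ab1 show no peak shared by all libraries at the gene 5′ end.

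Nlrc5 (ENSMUSG00000074151, chr8:94434356-94527272, plus strand) had little signal in wild-type. Its signals were 1.05 and 0.835 in wild-type and 5.27 and 3.01 in ApcMin/+. Both ApcMin/+ libraries were above both wild-type libraries. Replicate 1 was 1.75 times replicate 2, beside 2.78 times at H2-K1, 2.92 at H2-D1, 3.59 at Tap1 and 5.02 at B2m. At the other low 5′ ends this ratio was smaller, 0.81 at Ciita, 0.58 at Cd74 and 0.52 at H2-Ab1. The values rested on 3 and 8 fragments in wild-type, with intervals of 0.619 to 8.77 and 3.45 to 15.8, and on 39 and 33 in ApcMin/+, with intervals of 27.7 to 53.3 and 22.7 to 46.3. The percentiles were 42.7 and 46.1 in wild-type and 59.2 and 65.9 in ApcMin/+. The log2 difference was 1.37 (SE 0.63), with a limma adjusted p of 0.683 by Benjamini-Hochberg. It was 0.52 after centring, where the groups overlapped, and 1.05 without ApcMin/+ replicate 1. The signal formed 1 stretch of 800 bp, and its highest 250-bp bin began 250 bp before the start in 3 libraries and 500 bp before it in wild-type replicate 1.

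Cd74 (ENSMUSG00000024610, chr18:60803848-60812652, plus strand) is the invariant chain of class II, and its higher ApcMin/+ library was replicate 2, as at the low 5′ ends of Ciita and H2-Ab1. Its signals were 0.697 and 0.648 in wild-type and 2.06 and 3.57 in ApcMin/+. The groups did not overlap, and replicate 2 was above replicate 1, which held at 0.685% of the tested promoters and at 43.7% of the promoters whose mean lay from 1 to 2, to which Cd74 belongs. Fragments numbered 2 and 6 in wild-type and 15 and 39 in ApcMin/+, with intervals of 0.242 to 7.22, 2.20 to 13.1, 8.40 to 24.7 and 27.7 to 53.3. In percentiles Cd74 stood at 33.5 and 39.6 in wild-type and at 51.7 and 71.4 in ApcMin/+. The log2 difference was 1.16 (SE 0.48) and 1.45 without ApcMin/+ replicate 1, with an adjusted p of 0.760 by limma and Benjamini-Hochberg in the fit without a minimum. After centring it was 0.31 and the groups overlapped. It was then 1.32 without ApcMin/+ replicate 1 and -0.71 without replicate 2, so its centred direction rested on 1 library. Centring takes the same step off low promoters as off high ones, and over all promoters the median centred difference was -0.50. In ApcMin/+ replicate 2 the highest bin, at 9.46, lay from 1750 to 1999 bp inside the gene, and in replicate 1 the highest bin, at 5.81, lay from 500 to 749 bp inside it.

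The annotated 5′ ends of H2-Ab1 and Ciita were low, and most of the signal of both genes lay at a later start. At the H2-Ab1 5′ end (ENSMUSG00000073421, chr17:34257689-34269419, plus strand), which belongs to 1 noncoding transcript, the signals were 1.00 and 0.934 in wild-type and 0.540 and 1.04 in ApcMin/+. The groups overlapped there, with a log2 difference of -0.15. A further 5 transcripts, 3 of them coding, begin from 5520 bp downstream. Within 500 bp of the first of these the signals were 1.39 and 2.29 in wild-type and 13.8 and 4.70 in ApcMin/+, on 2, 11, 51 and 26 fragments. Both ApcMin/+ values exceeded both wild-type values at these coding starts.

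Taking for every gene the annotated start with most signal, H2-Ab1 had 1.04 and 1.69 in wild-type and 10.4 and 3.95 in ApcMin/+. It passed the minimum there only through its ApcMin/+ values, at a start chosen by a mean to which ApcMin/+ replicate 1 gave most. Its log2 difference was then 1.68 (SE 0.77), the largest of the 10 genes, and 0.79 after centring, where the groups still did not overlap. It was 1.08 without ApcMin/+ replicate 1, and the limma adjusted p was 0.682 by Benjamini-Hochberg with all libraries. In percentiles H2-Ab1 stood at 35.1 and 56.1 in wild-type and at 66.8 and 71.5 in ApcMin/+. The stretch of signal was 2200 bp long, and 0.202% of the 25-base words in this window were repeated in the genome.

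Ciita (ENSMUSG00000022504, chr16:10480059-10528418, plus strand) has 3 groups of annotated starts. The gene is known to use separate promoters in different cells, of which the one nearest to the shared exons answers to interferon-γ outside the professional antigen-presenting cells, and the annotation does not name them. At the 5′ end the signals were 0.697 and 0.835 in wild-type and 0.519 and 0.643 in ApcMin/+, both ApcMin/+ libraries being below, on 2, 8, 4 and 7 fragments. Within 500 bp of the starts 8119 bp downstream they were 0.00895, 0.416, 1.13 and 0.467. Within 500 bp of the third group, 9687 bp downstream and all coding, they were 2.09 and 1.97 in wild-type and 6.89 and 2.57 in ApcMin/+, on 3, 9, 26 and 14 fragments. The third group was thus the highest in every library. At that start, in the wider window, the signals were 1.39 and 1.55 in wild-type and 5.17 and 2.48 in ApcMin/+. Ciita passed the minimum there only through its ApcMin/+ values. The log2 difference was 0.91 (SE 0.65), with a limma adjusted p of 0.682 by Benjamini-Hochberg. It was 0.02 after centring and 0.49 without ApcMin/+ replicate 1.

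**Figure D5:**
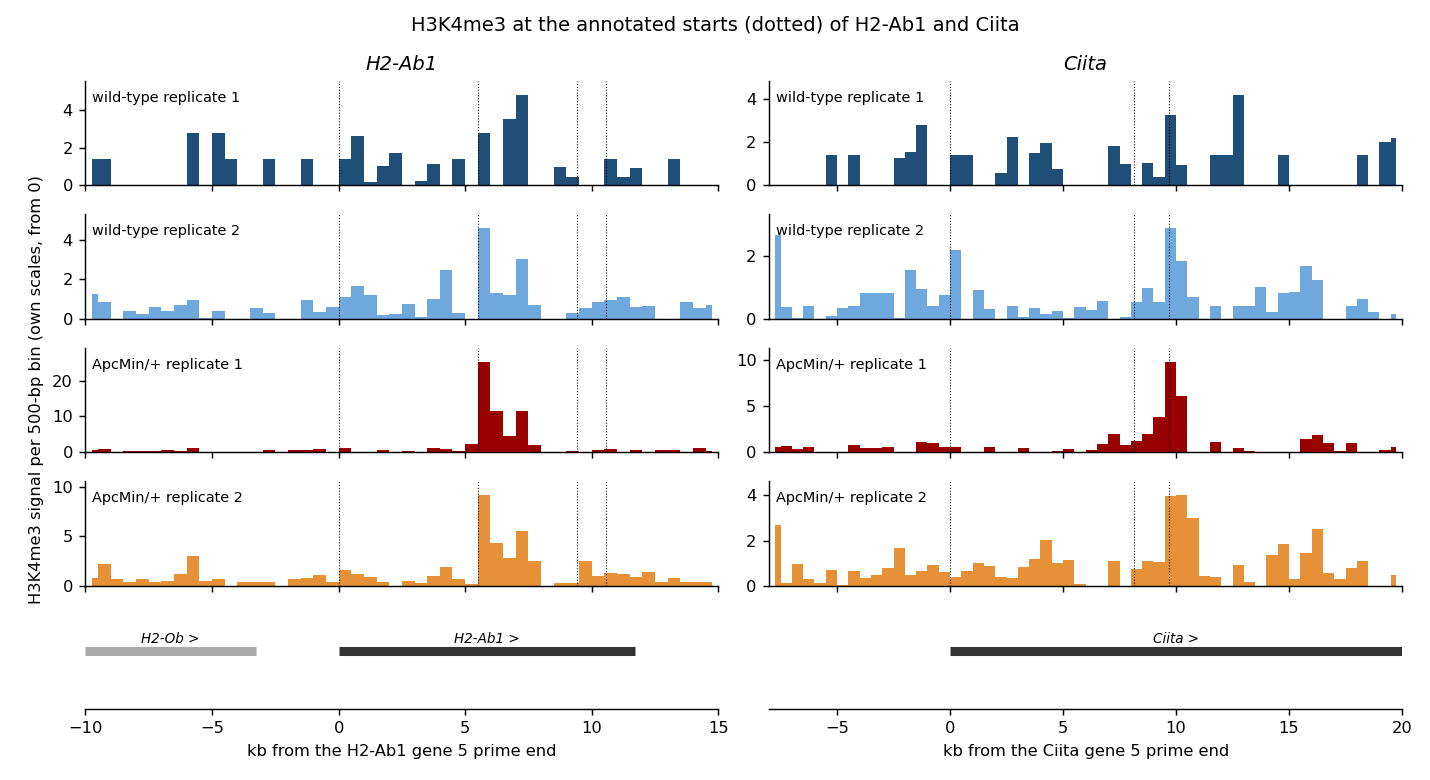
H3K4me3 signal in 500-bp bins around the starts of H2-Ab1 (left) and Ciita (right), in kb from each gene 5′ end, with 1 row per library on its own scale from 0, dotted lines at the first start of each group and gene spans below. Signal at H2-Ab1 rises at the start 5520 bp downstream in both ApcMin/+ libraries and, to 4.58, in wild-type replicate 2. In the same libraries the highest bins shown at Ciita stand by the start 9687 bp downstream, at 2.88 in wild-type replicate 2. In wild-type replicate 1 the highest bins shown begin 7000 bp downstream at H2-Ab1 and 12500 bp downstream at Ciita.

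With the strongest start of every gene, both ApcMin/+ values exceeded both wild-type values at 8 of the 10 genes, all but B2m and H2-D1, against 25.8% of all promoters and 37.9% of those tested. After centring this held at 4 genes (Tap1, Psmb9, Psmb8 and H2-Ab1) against 6.07% of all promoters and 12.3% of those tested, and the reverse held at 0 genes against 24.7% of all. At these starts limma with Benjamini-Hochberg called 0 of 10796 promoters (0%) and, centred, 13 (0.12%), with 0 of these genes in either. The median log2 difference over the genes was 1.21, beside 0.86 over the tested promoters, and 0.32 beside -0.03 after centring. The strongest start was chosen by the mean of the 4 libraries, after the position of the signal had been seen. Nlrc5, Ciita and H2-Ab1 passed the minimum at these starts only through their ApcMin/+ values.

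The calls depended on 1 library. Without ApcMin/+ replicate 2, so that replicate 1 stood alone for its genotype, limma with Benjamini-Hochberg called B2m (adjusted p = 0.000707), Nlrc5 (0.00355), Psmb8 (0.00856), H2-D1 (0.0372), Psmb9 (0.0423) and H2-K1 (0.0426), with Tap1 at 0.0508. It also called 65.2% of all tested promoters higher, so 6 of the 7 genes tested is to be read against that share. The lone library was assumed to vary as the wild-type ones did. Without ApcMin/+ replicate 1 it called 0 promoters, with 90 at an unadjusted p under 0.05.

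Other genes of the pathway lay on both sides of the median promoter. Of 55 listed, 54 were measured and 40 tested, and 0 were called in either direction, also after centring. Both ApcMin/+ libraries were above at 19 and below at 1. The shares were 26% and 7.17% of all promoters, and 38.5% and 0.161% of the tested ones. After centring they were above at 7 and below at 7. The shares were then 5.96% and 21.1% of all promoters, and 13.1% and 14.3% of the tested ones. The median log2 difference was 0.80, and -0.05 centred, beside 0.85 and -0.01 over the tested promoters. Canx, the calnexin that holds new heavy chains, had 7.34 and 5.24 in wild-type and 33.1 and 8.65 in ApcMin/+, without overlap and with a log2 difference of 1.33. Sppl2a, the protease that cuts the last stub of Cd74, had 2.44 and 2.68 against 19.1 and 3.89, again without overlap, and the highest tested difference, 1.48. The legumain gene Lgmn, an endosomal protease, had 5.93 and 2.26 against 8.50 and 3.54, with overlap and a difference of 0.47. The limma adjusted p by Benjamini-Hochberg was at least 0.683 for each.

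The other class II genes were mostly low. Of its 12 measured genes other than H2-Ab1, Cd74 and Ciita, 5 were tested, and both ApcMin/+ libraries were above at 8, against 26% of all promoters. After centring they were above at 2 and below at 1, against 5.96% and 21.1% of all. H2-Aa, the α chain that pairs with the H2-Ab1 product, had 0 and 0.342 in wild-type and 1.88 and 1.64 in ApcMin/+, without overlap. H2-Ob, a chain of a modulator of peptide loading and the upstream neighbour of H2-Ab1, had 0 and 0.209 against 0.270 and 0.861. Its 0.209 and 0.270 stood by the background of their libraries, 0.337 in wild-type replicate 2 and 0.233 in ApcMin/+ replicate 1. The values of 0 at H2-Aa and H2-Ob came from wild-type replicate 1, the library with fewest tags. For class II genes the cells that a scrape can bring along matter, and the 15 leukocyte markers summed to 11.1 and 9.01 in wild-type and to 13.8 and 10.3 in ApcMin/+. Both ApcMin/+ libraries were above at 6 of the 15 and below at 1, against 26% and 7.17% of all promoters. After centring they were above at 0 and below at 4, against 5.96% and 21.1% of all. As deposited, the log2 difference was above 0 at 7 of the 15, with a median of -0.09. Ptprc, the pan-leukocyte CD45 gene, was at 0 and 0.627 in wild-type and at 1.60 and 0.821 in ApcMin/+, and Itgax stayed between 0.313 and 1.39. The 9 markers of stroma and vessels summed to 3.82 and 5.48 in wild-type and 8.77 and 6.95 in ApcMin/+. The part of such cells in the class II values was not tested, and more cells of a type cannot be told apart from more signal per cell.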

How the data were processed

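H3K4me3 CUT&RUN was analysed in 2 wild-type and 2 ApcMin/+ libraries. Per the study's methods and the labels, the authors trimmed paired reads to 25 bases, aligned them to mm10 with Bowtie2, removed duplicates with Picard and reads of mapping quality under 10, kept fragments of 150 to 500 bp and made tracks with HOMER. The deposited values are coverage signal per base, scaled to 10000000 tags, with no control subtracted. Control and H3 tracks, H3K9me3 and RNA-seq were not used here.

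Mean signal was taken over 2001 bp around each GENCODE M21 gene 5′ end, put on a log2(signal + 1) scale, filtered at a mean of at least 2, and tested with limma 3.58.1 (R 4.3.3, trended variance, no covariate) and Benjamini-Hochberg adjustment at 0.05 over all promoters tested. Fold differences on that scale understate changes of low promoters. P-values measure only the spread between these libraries. Fragments were recovered as summed signal over the signal of 1 tag, with exact 95% Poisson intervals. For centring, each library's median log2 value over the tested promoters was subtracted. The same step was taken off low promoters, and over all promoters the median centred difference was -0.50. The procedure was tested on simulated data. All 10 genes were named whatever their values. Of the other pathway genes, those next to a member, the 2 highest and the 2 lowest tested differences were named. Marker genes were named after their values were seen. Members and lists were chosen with earlier results of these data known. The reference lengths of all 21 chromosomes exceeded the last positions in the tracks. Alternatives were 3 other scalings, pseudocounts of 0.1 and 5, no filter, a 500-bp window, another start, a replicate block and leaving out each library.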

Additional observations from a re-analysis of the deposited data

How the results depend on the processing

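With all 4 libraries, the count of called genes stayed at 0 under every alternative tried. A replicate block, which pairs libraries by a number that marks no stated litter or day, also left 0 called, and the median log2 difference was 1.05. The deviations of same-numbered libraries correlated at 0.196 over promoters. Leaving out 1 library in turn, 0 to 6 genes were called, 6 to 8 had non-overlapping higher ApcMin/+ values and the median ran from 0.28 to 1.54. H2-Ab1 then ran from -0.35 to 0.050. With 1 library left in a group, non-overlap is easier to reach, and the share of all promoters reaching it is not given here. These counts therefore do not set the genes apart. Without ApcMin/+ replicate 1 the difference was above 0 at 9 of the 10 genes and at 6606 of the 9930 tested promoters. The medians were 0.28 and 0.13. The calls without ApcMin/+ replicate 2 are to be read against the share of tested promoters called in that fit, given above.

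Centring gave 2 non-overlapping genes, a median of 0.19, and -0.17 at H2-K1 and -0.12 at H2-D1, which quantile normalization put at -0.17 and -0.0905. Quantile normalization gave no value for Ciita, H2-Ab1 and Cd74 or for the counts and median over all 10 genes. A pseudocount of 5 lowered the median to 0.54. A 500-bp window put H2-Ab1 at 0.00 (0.0042). The strongest start gave 8 non-overlapping genes, 0.91 at Ciita and 1.68 at H2-Ab1. Alternatives chosen after seeing the data were that start with centring, and centring without 1 library. That start with centring gave a median of 0.32, with H2-K1 at -0.18, H2-D1 at -0.15, Ciita at 0.0188 and H2-Ab1 at 0.79. Centring gave medians of -0.0396 and 0.33 without wild-type replicates 1 and 2. The medians were 0.152 and -0.0368 without ApcMin/+ replicates 1 and 2. In the same order, these centred fits had 2, 5, 4 and 3 non-overlapping genes. The causes were not tested. The centred fit without wild-type replicate 2 left wild-type replicate 1 alone for its genotype, and B2m rested on 5 fragments there. The centred difference at B2m was 1.34 in that fit and -0.07 without wild-type replicate 1. The non-overlap counts of the centred fits without 1 library also stand here without a share over all promoters. Depth was most limiting in wild-type replicate 1, with 2 to 5 fragments at 5 of the 10 genes.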
